A study of Mus musculus with 59 samples.

Results

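Female mice heterozygous for Ash1l (HT) were compared with wild-type females (WT), all from the vehicle arm of a drug study in which dosing was through the mothers' milk. Members were the libraries labelled as vehicle females, 5 HT and 5 WT, which is 10 of the 59 libraries in the series. All mice were C57BL/6J and were taken at postnatal day 25. Dosing through the milk had run from postnatal day 3 to 24, for 3 weeks, and the labels do not say what the vehicle was. The remaining 49 libraries came from vehicle males and from females and males given fluoxetine or lithium, again HT and WT. The prefrontal cortex was dissected, and polyadenylated RNA was sequenced with a stranded kit. The labels give neither the Ash1l allele nor the litter or dam of any mouse. The p-values below therefore measure the spread between samples only, and dam effects cannot be told apart from genotype. In limma that spread was pooled over the groups of all 59 libraries, unless fewer are named. Recovered reads ran from 26.1 to 36.3 M (M for mega) per vehicle female library. Xist, the RNA that coats the inactive X chromosome, lay between 11046 and 39698 normalised counts in these 10 libraries and between 0 and 12.4 in the male ones, so the labelled sex was matched. All 20 markers of cortical excitatory neurons were measured, and none was at 0.

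ASH1L is a histone methyltransferase of the trithorax group, which places methyl groups on lysine 36 of histone H3 and counters Polycomb repression at developmental genes. Loss of one copy of ASH1L in people is associated with autism and intellectual disability. The prefrontal cortex at this age is still maturing, with synapses being formed and pruned and axons being myelinated.

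The targeted gene was measured first. Ash1l lies on the plus strand of chromosome 3, at 88950622-89079375 in GRCm38, and its longest coding transcript has 11644 bases. Its normalised count, the read count divided by a size factor for the library, was 4163, 4320, 4130, 4382 and 4107 in HT replicates 1 to 5. In WT replicates 1, 2, 4 and 5 it was 4712, 4936, 4748 and 5048. In the library labelled WT replicate 3 it was 3557, below every HT library. The groups therefore overlapped through this library alone. The means were 4220 ± 123 (SD, n = 5) in HT and 4600 ± 599 (SD, n = 5) in WT, or 4861 ± 159 (SD, n = 4) without replicate 3. The log2 fold change of HT against WT was -0.11 ± 0.056 (SE; limma, adjusted p = 0.21), and -0.20 ± 0.045 (adjusted p = 0.0463) without that library. A two-sided exact permutation test of the 10 libraries gave p = 0.302. Without WT replicate 3 it gave 0.0159, the smallest p that 5 against 4 libraries allow. Since the overlap came from that library alone, leaving it out fixed this separation in advance. Neither the limma nor the permutation p for Ash1l without it is therefore support for a difference.

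Removing from each library its trend of expression with GC content and transcript length changed this picture. Ash1l in the library labelled WT replicate 3 then stood at 4533, the other WT libraries at 4767 to 5194 and the HT libraries at 3876 to 4200, with no overlap. The fold change became -0.28 ± 0.035 on the log2 scale (limma, adjusted p = 8.31e-07), and the exact permutation p was 0.00794, the smallest that 5 against 5 libraries allow. In the other 5 combinations of drug and sex, the same contrast gave log2 values of -0.40 to -0.30, or -0.44 to -0.28 with the trends removed. The 24 other HT libraries held 3641 to 4307 normalised counts of Ash1l and the 25 other WT libraries 4703 to 6218.

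**Figure D1:**
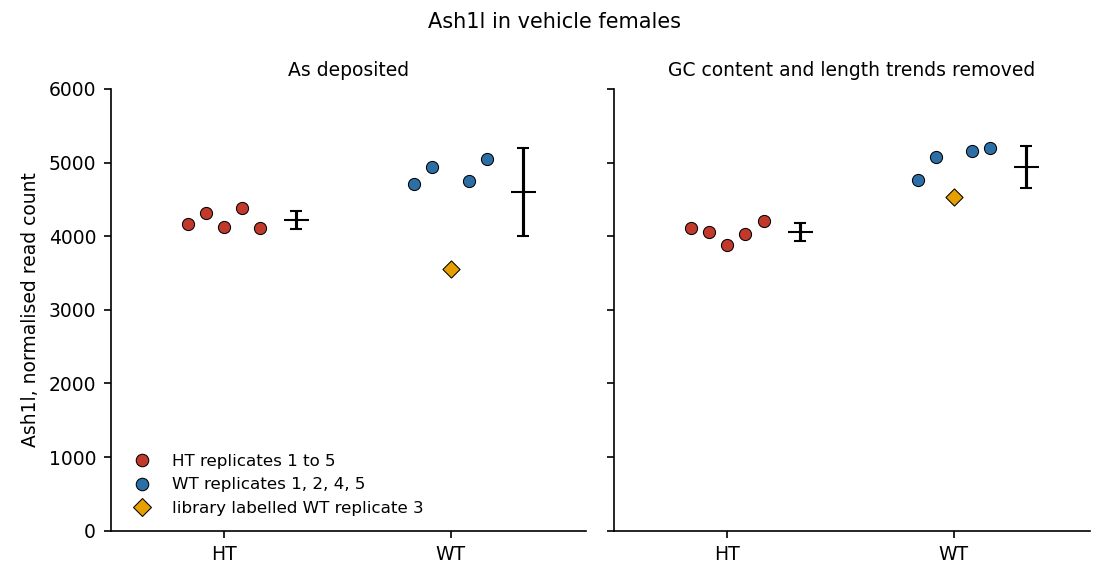
Ash1l normalised count in each vehicle female library, as deposited (left) and with the GC content and length trends of each library removed (right); bars are the mean ± SD of 5 libraries. As deposited, the library labelled WT replicate 3 (diamond, 3557) sits below all HT libraries, and with the trends removed (4533) it sits above all of them.

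The library labelled WT replicate 3 stood apart in more than Ash1l, so results are given with and without it. It had the most reads of the vehicle females (36.3 M) and the lowest summed normalised count (26.7 M, against 27.7 to 32.1 M in the 49 libraries of the other groups). Its values departed from the mean of those 49 with an SD over genes of 0.62 on the log2 scale, against 0.38 to 0.47 in the other 9 vehicle females. A quality weight that limma assigned to each library was 0.185 for it, 0.498 for HT replicate 5 and 1.02 to 1.75 for the other 8, with 0.178 to 1.85 over the other groups.

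Its marker levels differed from the rest of its group as well. The 20 markers of oligodendrocytes, the cells that make myelin, summed to 321563 normalised counts in it, against 124844 to 167598 in the other WT libraries and 82950 to 168005 in HT. The 20 endothelial markers summed to 41804 (other WT 32191 to 33863, HT 27332 to 33427) and the 12 mural cell markers to 13060 (other WT 9231 to 10498, HT 7845 to 10252). The 11 choroid plexus markers measured summed to 18279 (other WT 6164 to 7953, HT 4979 to 7431) and the 19 striatal markers to 20503 (other WT 9907 to 11848, HT 10329 to 11459). Its excitatory neuron sum was low, at 143093 against 221107 to 253896 in the other WT libraries and 167700 to 247822 in HT. It was also the lowest of the 10 libraries for interneurons (40519), astrocytes (263880), microglia (15552) and the olfactory bulb list (11497). Its oligodendrocyte, endothelial, mural, choroid plexus and ependymal (1005) sums lay above the range of the 49 libraries of other groups, as did that of cytosolic ribosomal proteins. Its excitatory, interneuron and olfactory bulb sums lay below that range, and its striatal, astrocyte and microglial sums lay inside it. The part of these differences in the results below was not tested beyond leaving the library out. In bulk tissue, fewer cells of a type and less RNA per cell cannot be told apart.

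The HT group was uneven in another list. Markers of the olfactory bulb and its migrating neuroblasts summed to 46174, 41143 and 59283 in HT replicates 2, 4 and 5, and to 13588 and 12542 in HT replicates 1 and 3. In WT they summed to 26171, 13118, 11497, 15371 and 15031 in replicates 1 to 5. The 49 libraries of other groups spanned 11723 to 68851, so the high HT sums lay inside their range. The same HT replicates 2, 4 and 5 had the lower excitatory sums of their group (167700, 172907 and 187655, against 247822 and 241067).

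**Figure D2:**
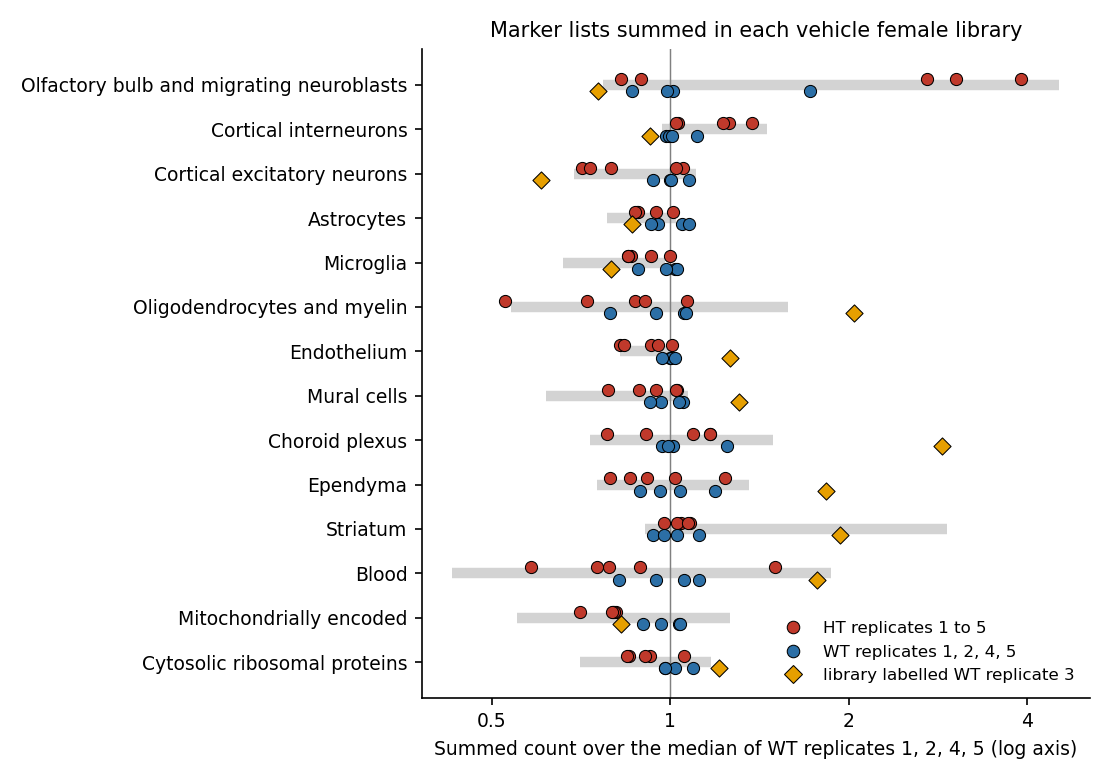
Summed normalised count of each marker list in every vehicle female library, divided by the median of WT replicates 1, 2, 4 and 5, on a log axis; grey bars span the 49 libraries of the other groups. The library labelled WT replicate 3 (diamonds) is high for myelin, vessel, choroid plexus and striatal markers, and 3 HT libraries are high for olfactory bulb markers.

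Across the 17875 genes tested, 811 rose (4.54%) and 298 fell (1.67%) in HT females, 6.2% in all (limma, Benjamini-Hochberg threshold 0.05). The contrast sets 5 libraries against 5, while the spread was estimated over the groups of all 59 libraries. Most changes were small. The median absolute log2 fold change was 0.34 among risen and 0.30 among fallen genes, 75 genes changed at least 1.5-fold, and 14 at least 2-fold. All 5 HT values lay above all 5 WT values for 341 genes (1.91% of those tested) and below them for 275 (1.54%). With quantile normalisation the calls split more evenly, 749 risen and 583 fallen.

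These counts rested on single libraries. Without the library labelled WT replicate 3, 11 genes rose (0.0615%) and 9 fell (0.0503%), 0.112% in all, and 18 of these 20 were also among the 1109. The other 2 were Ash1l and Tbc1d4. Every one of the 811 risen and 298 fallen genes kept its sign, as did 15505 of the 17875 genes tested. The fits share all their other libraries, and these genes were chosen in the first fit, so this agreement is no support for the calls. Their medians were 0.25 and -0.27 in place of 0.34 and -0.30. Leaving out HT replicate 4 gave 126 risen and 17 fallen, and leaving out HT replicate 2 gave 203 and 43. Leaving out HT replicate 5 raised the counts to 1333 and 818. With the GC content and length trends removed, 5 genes rose (0.028% of those tested) and 1 fell (0.00559%), 0.0336% in all, and 4 of the 6 were among the 1109. A fit of the 10 vehicle female libraries alone called no gene in limma, while 2964 had an unadjusted p under 0.05. On all 59 libraries, edgeR called 658 risen and 341 fallen and DESeq2 1137 and 564.

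The 18 genes called both with and without WT replicate 3 were 10 that rose and 8 that fell. Among the rises, Pcmtd2, of the protein isoaspartate methyltransferase family (chromosome 2, 181837854-181857461), was at 2830, 2701, 2767, 2668 and 2323 in HT and at 2095, 2054, 1545, 1843 and 2049 in WT. The groups did not overlap, and the log2 fold change was 0.48 ± 0.076 (limma, adjusted p = 0.00127), or 0.40 (adjusted p = 0.0277) without WT replicate 3 and 0.31 (adjusted p = 0.0288) with the trends removed. Smchd1, a chromatin protein needed to keep the inactive X chromosome silent (chromosome 17, 71344489-71475343), was at 1249, 1510, 1325, 1488 and 1159 in HT and at 1058, 1013, 779, 1013 and 1020 in WT. It too showed no overlap, and its log2 fold change of 0.46 ± 0.081 passed in all 3 fits (limma, adjusted p = 0.00366, 0.0463 and 0.0488). Alg10b, a glucosyltransferase of N-glycan assembly, was the remaining gene to pass all 3 (0.48, then 0.35 and 0.26). HT replicate 5, at 1740, was below WT replicate 1, at 1754. These 3 rises did not pass when WT replicate 3 was left out and the trends were removed together. Nor did they pass in limma on the 10 vehicle female libraries alone.

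Il1rapl1, a synaptic adhesion protein linked to X-linked intellectual disability, was at 808, 924, 780, 977 and 743 in HT and at 668, 632, 348, 522 and 611 in WT. WT replicate 3 was the lowest of the 10, and the value went from 0.63 to 0.47 without it, still past the threshold (limma, adjusted p = 0.00366 and 0.0463).

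The other risen genes of this set have general cellular roles. Pgap1, which trims lipid anchors of membrane proteins (0.71), Jmjd1c, of the JmjC demethylase family (0.41), and Rab8b, a small GTPase of vesicle traffic (0.40), showed no overlap between the groups. Cnot2, of the deadenylase complex that shortens poly(A) tails (0.27), likewise showed none. Dmxl1, which helps assemble the vesicular proton pump, rose by 0.52, and its HT replicate 5 (1897) fell below WT replicate 1 (1906). With the trends removed these 5 genes ranged from 0.18 to 0.43 and none passed.

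Of the genes that fell with and without WT replicate 3, Plcd3, a phospholipase C (chromosome 11, 103070304-103101658), was at 203, 233, 219, 184 and 232 in HT. In WT it was at 292, 341, 319, 315 and 346, above every HT library. The log2 fold change was -0.59 ± 0.11 (limma, adjusted p = 0.00366), -0.60 without WT replicate 3 and -0.42 (adjusted p = 0.066) with the trends removed. Selenow, a small selenoprotein with a redox motif, was at 12637, 10956, 12915, 10363 and 12203 in HT and at 14774, 15735, 16498, 16133 and 14490 in WT (-0.40 ± 0.079, limma, adjusted p = 0.00486), without overlap. Btbd6, a substrate adaptor of a ubiquitin ligase (-0.30), did not overlap either, and the predicted gene Gm17018 changed by -0.39.

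Nsmf, which carries signals from NMDA receptors to the nucleus, was at 15512, 13468, 14867, 11781 and 15926 in HT. It was at 18876, 21823, 18964 and 18492 in WT replicates 1, 2, 4 and 5, above every HT library, and at 11790 in the library labelled WT replicate 3. The change thus grew from -0.31 to -0.45 (limma, adjusted p = 0.0491 and 0.0277) when that library was left out. Ppp1r9b, or spinophilin, a scaffold of dendritic spines, moved from -0.39 to -0.49 without that library. Its groups still overlapped then, with HT replicate 5 (26461) above WT replicate 4 (25859). Nagk, a kinase of amino sugar salvage (-0.29), and Cenpb, which binds centromeric DNA (-0.30), overlapped through WT replicate 3 alone. For Nagk it stood at 826, below HT replicate 1 (842), and for Cenpb at 4668, below HT replicate 5 (5015).

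**Figure D3:**
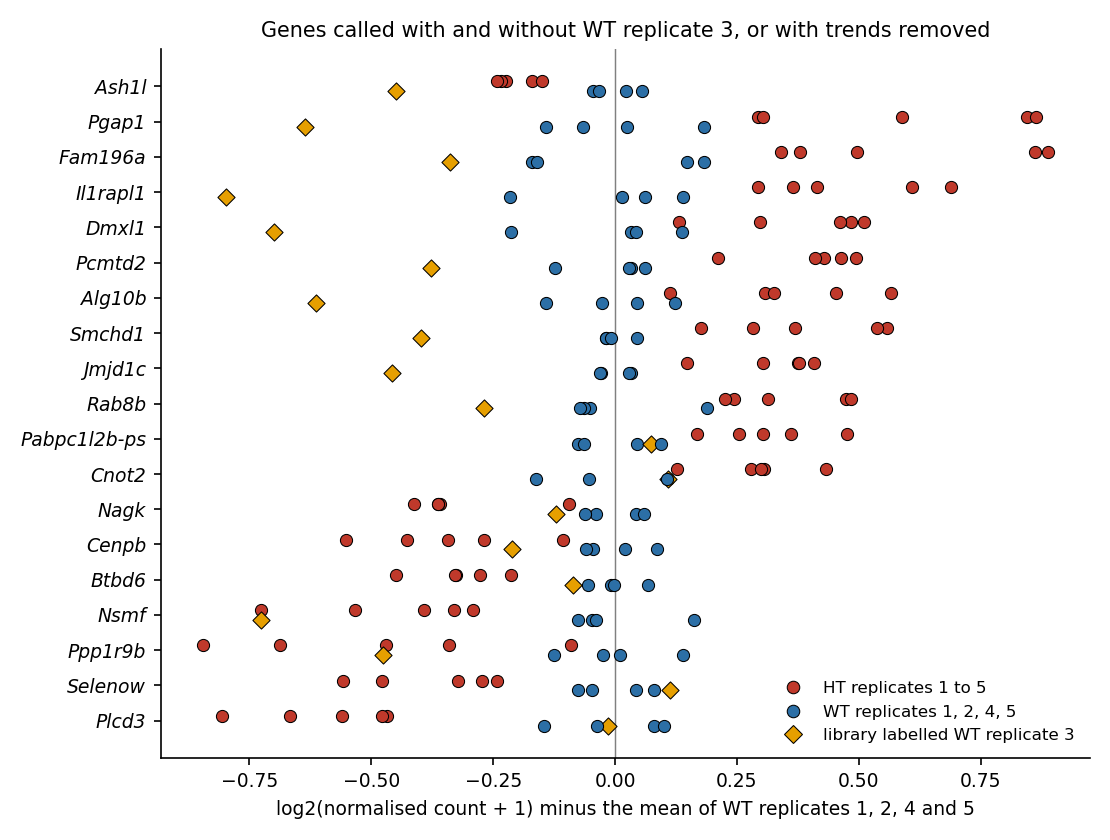
Ash1l and 18 other named genes called both with and without WT replicate 3, or with the GC content and length trends removed, in all 10 vehicle female libraries, as log2(normalised count + 1) minus the mean of WT replicates 1, 2, 4 and 5. HT libraries (red) lie to the right for rises and to the left for falls, and the library labelled WT replicate 3 (diamonds) lies farther left than the other WT libraries for most of the rises.

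With the trends removed, the 6 genes past the threshold were Ash1l, Pcmtd2, Smchd1 and Alg10b, named above, with Fam196a and Pabpc1l2b-ps. Fam196a, a component of inhibitory synapses, was at 396, 553, 385, 429 and 563 in HT and at 345, 270, 240, 272 and 337 in WT, without overlap. Its transcript is rich in G and C (60.4%), and its log2 fold change was larger with the trends removed, 0.85 in place of 0.66 (limma, adjusted p = 0.0336 and 0.0107). Pabpc1l2b-ps, a pseudogene of a poly(A)-binding protein whose reads could also stem from its near copies, was 0.57 with the trends removed (limma, adjusted p = 0.0254) and 0.30 (adjusted p = 0.12) before.

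The fold changes followed base composition. Across 17864 genes, the log2 fold change had a Spearman correlation of -0.534 with the GC content of the transcript and 0.302 with its length, and genes are not independent replicates. With the genes split into 5 equal bins by GC content, in the lowest bin, 28.7% to 43.9%, the median log2 fold change was 0.19, with 532 genes risen and 1 fallen. In the highest bin, 55.7% to 78.3%, the median was -0.16, with 2 risen and 205 fallen. Risen genes had a median GC content of 42.4% and a median transcript length of 5491 bases. Fallen genes had 57.4% and 1907 bases, and all tested genes 49.7% and 2980.5 bases. Genes were also split into 3 equal bins by each property. In the bin lowest in GC content, the median was 0.07 for short, 0.13 for middle and 0.20 for long transcripts. There 18 of 1489, 134 of 1995 and 518 of 2471 genes rose.

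The letters of 4 of the genes above show the contrast. Sequences were read for only some of the genes called with and without WT replicate 3. Among those read, the 4 are the lowest pair and the highest pair in transcript GC content. Dmxl1, which was not read, has 38.3% and so lies below Pgap1. Each line gives 150 bases from the middle of the coding sequence in GENCODE M21 (GRCm38), 5′ to 3′, with G and C in capitals.
Il1rapl1, risen, chromosome X, coding bases 970 to 1119: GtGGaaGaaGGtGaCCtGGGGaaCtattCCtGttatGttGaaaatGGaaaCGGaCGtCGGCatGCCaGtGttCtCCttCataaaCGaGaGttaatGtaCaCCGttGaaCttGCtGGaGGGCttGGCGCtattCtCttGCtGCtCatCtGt
Pgap1, risen, chromosome 1, coding bases 1309 to 1458: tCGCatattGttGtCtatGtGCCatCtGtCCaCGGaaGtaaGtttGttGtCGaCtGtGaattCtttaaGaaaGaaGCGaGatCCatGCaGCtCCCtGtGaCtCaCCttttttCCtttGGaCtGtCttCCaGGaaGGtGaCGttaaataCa
Ppp1r9b, fallen, chromosome 11, coding bases 1151 to 1300: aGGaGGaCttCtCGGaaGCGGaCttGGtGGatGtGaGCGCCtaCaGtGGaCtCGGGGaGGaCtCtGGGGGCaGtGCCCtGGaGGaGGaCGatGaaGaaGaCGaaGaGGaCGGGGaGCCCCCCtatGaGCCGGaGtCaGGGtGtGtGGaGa
Plcd3, fallen, chromosome 11, coding bases 1103 to 1252: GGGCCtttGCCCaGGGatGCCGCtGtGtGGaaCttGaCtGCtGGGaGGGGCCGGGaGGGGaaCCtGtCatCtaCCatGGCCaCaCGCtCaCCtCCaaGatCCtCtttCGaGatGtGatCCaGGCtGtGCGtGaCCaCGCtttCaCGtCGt
The stretches hold 48% and 43.3% G and C in the risen pair and 62.7% and 60.7% in the fallen pair. Whole transcripts differ more, at 36.2% and 39.3% against 62.3% and 60.1%, since the untranslated ends of Il1rapl1 and Pgap1 are poorer in G and C than their coding parts (43.2% and 42.3%).

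Base composition of the promoter did not follow the fold change. Across the 12688 genes with a RefSeq promoter on GRCm38.p6, the GC content of the 250 bases before the start site had a Spearman correlation of 0.022 with the log2 fold change.

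The trend differed from library to library. Against the mean of the 49 libraries of other groups, the Spearman correlation of a library's deviations with GC content was -0.293, -0.299, -0.277, -0.533 and 0.241 in HT replicates 1 to 5. In WT replicates 1 to 5 it was 0.086, 0.174, 0.337, 0.177 and 0.240. Thus HT replicate 5 lay with the WT libraries, HT replicate 4 lay lowest, and the library labelled WT replicate 3 lay highest. The 49 libraries of other groups spanned -0.536 to 0.413, so none of the 10 values lay outside their range. For length, WT replicate 3 stood at -0.361, outside the -0.260 to 0.241 of the other groups, and WT replicate 4 at -0.313 lay outside it too. In WT replicate 3 the longest of 5 equal bins of transcripts had a median deviation of -0.33 and the shortest a median of 0.27, on the log2 scale.

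**Figure D4:**
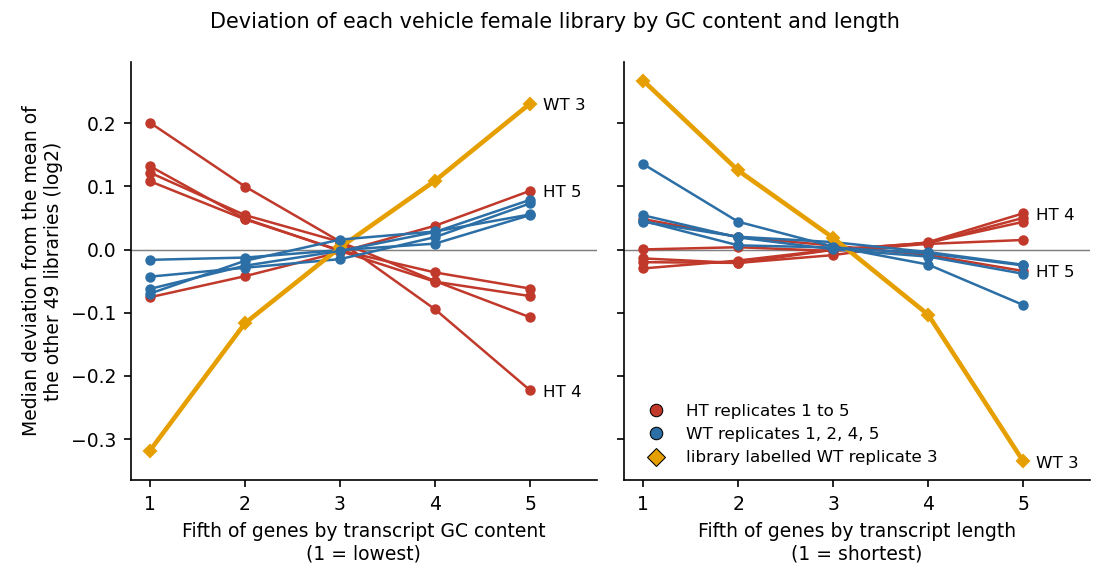
Median deviation of each vehicle female library from the mean of the 49 other libraries (log2), in 5 equal bins of genes by transcript GC content (left) and by transcript length (right). For GC content 4 HT libraries slope down and HT replicate 5 slopes up with the WT libraries; the library labelled WT replicate 3 has the steepest slope with length.

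No single library accounted for the whole GC trend of the contrast. Its correlation with GC content was -0.467 without WT replicate 3 and ranged from -0.591 (without HT replicate 5) to -0.466 (without HT replicate 4) over all 10 libraries left out in turn. That with length went from 0.302 to 0.204 without WT replicate 3. In the other strata the genotype contrast correlated with GC content at 0.228 in vehicle males, -0.163 in fluoxetine females, 0.382 in fluoxetine males, 0.439 in lithium females and -0.072 in lithium males, so the sign was not shared.

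The largest rises, among called genes with a mean of at least 100 normalised counts, were in Synpr, Fst, Chrm2, Lancl3, Kcnb2, Nt5e, Fstl5, Igf1, Cntnap3 and Cpne4, from 0.97 to 0.80 on the log2 scale. Synpr, a synaptic vesicle protein and a member of the olfactory bulb list, was at 3564, 7380.5, 3202, 7332 and 8542 in HT and at 4310, 2689, 1647, 3215 and 2941 in WT. Its high libraries were HT replicates 2, 4 and 5, those with high olfactory bulb sums. The muscarinic receptor gene Chrm2 had the same 3 libraries high, at 917, 809 and 895 against 362 and 380 in HT replicates 1 and 3 and 256 to 389 in WT. The part of tissue composition in these values was not tested.

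Fst, or follistatin, which binds and blocks activins, was at 123, 180, 122, 202 and 129 in HT and at 91.9, 73.1, 68.3, 78.9 and 70.5 in WT. All HT libraries were above all WT libraries (0.95 ± 0.24, limma, adjusted p = 0.0159), and without WT replicate 3 the value was 0.91 (adjusted p = 0.0848). Kcnb2, a delayed rectifier potassium channel, also did not overlap (HT 1319 to 1698, WT 516 to 1138), at 0.86 and then 0.69 (limma, adjusted p = 0.059). None of the 10 largest rises passed without WT replicate 3.

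The largest falls were in Myh7b, Plcd3, Cdc42ep2, Cd248, Cspg4, Dlgap3, Parp3, Frmd8, Tpgs1 and Ccdc124, from -0.70 to -0.50. Myh7b, a myosin heavy chain, was at 88.7, 100.2, 115, 55.2 and 125 in HT and at 142, 157, 209, 138 and 129 in WT, where replicate 3 was the highest. The proteoglycan gene Cspg4, which marks oligodendrocyte precursors and pericytes, was likewise highest in WT replicate 3, at 950 against 600 to 709 in the other WT libraries (-0.55, and -0.44 without it). Dlgap3, a postsynaptic scaffold, was at 10600, 7794, 10399, 6363 and 11442 in HT and 13881, 15849, 11116, 11940 and 13475 in WT (-0.53, and -0.59 without WT replicate 3, limma, adjusted p = 0.0636). Of the 10, Plcd3 was the 1 that passed without that library.

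Gene lists were read against the background of 4.54% risen and 1.67% fallen. That background varied with gene properties: 14.9% rose in the lowest of 5 bins by GC content and 13.4% in the longest of 5 by transcript length. The part of GC content and length in the list counts was not tested beyond removing the trends. Histone methylation on lysine 36, the reaction ASH1L carries out, was covered by 25 genes, of which 3 rose and none fell: the methyltransferase gene Nsd3 (0.25), the Polycomb cofactor gene Mtf2 (0.36), whose product reads this mark, and the demethylase gene Kdm4c (0.26). The relatives Nsd1 (0.18), Nsd2 (0.23) and Setd2 (0.17) did not pass. The list median was 0.08 with all libraries and without WT replicate 3, against 0.003 and 0.001 over all genes, and 0.03 with the trends removed. None of the 3 rises passed in either of those other fits, where Ash1l, which fell, was the 1 member past the threshold. Of 20 genes of KMT2 and KDM6 complexes, which write and erase other marks of histone H3, 5 rose, among them Kmt2c (0.39), Kdm6a (0.29) and Kmt2e (0.27). Of 26 Polycomb genes 6 rose, among them Suz12 (0.48), Jarid2 (0.39) and Phc3 (0.29), while the catalytic genes Ezh2 (0.01) and Ezh1 (0.003) did not pass. No member of either list fell, and without WT replicate 3 no member passed in limma.

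Among 42 other chromatin regulators 6 rose and none fell, namely Smchd1 and Jmjd1c, described above, with Atrx (0.44), Chd6 (0.28), Arid2 (0.31) and Bptf (0.25), which remodel nucleosomes. Of 54 autism risk genes 12 rose and none fell. The list median was 0.17, then 0.10 without WT replicate 3 and 0.06 with the trends removed. The median GC content of the list was 47.6% and its median transcript length 7189.5 bases, against 49.7% and 2980.5 bases over all tested genes. The 12 include the RNA helicase gene Ddx3x (0.34), Kmt2c, the AMPA receptor gene Gria2 (0.44), the RNA-binding protein gene Fmr1 (0.39) and Adnp (0.54). Ddx3x was at 9159, 10245, 9341, 10668 and 8890 in HT and at 8085, 7464, 6283, 8171 and 8367 in WT, without overlap. Without WT replicate 3 the 1 autism gene past the threshold was Ash1l. Of the 379 genes named Zfp, 28 rose and 1 fell (median 0.11), and their median GC content was 44.8% against 49.7% over all tested genes. In limma none of the Zfp genes passed without WT replicate 3 (median 0.08) or with the trends removed (median 0.03).

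Synaptic and channel genes were covered by several lists. Of 42 synaptic adhesion genes 6 rose, among them Il1rapl1, Nrxn3 (0.40) and Cntnap4 (0.54), and none fell. Grm5 (0.35), a metabotropic glutamate receptor gene, rose. Of 15 genes of GABA-A receptors and their anchor 4 rose, among them Gabra5 (0.56), Gphn (0.24) and Gabra2 (0.47), with a list median of 0.24, which was 0.14 without WT replicate 3 and 0.06 with the trends removed. Of 27 sodium and calcium channel genes 5 rose, among them Scn3a (0.54) and Cacna1d (0.39), and the list median went from 0.06 to -0.02 without WT replicate 3. Of 33 potassium channel genes Kcnd2 (0.41), Kcnb2 and Kcna3 (0.58) rose. Gria2 was the 1 gene of 11 for AMPA and kainate receptors that rose, and none of 6 NMDA receptor genes passed. Of 44 genes of vesicle release none rose, and Syt3 (-0.45), a calcium sensor, fell. Without WT replicate 3, Il1rapl1 was the 1 synaptic adhesion gene that passed, and no gene of the GABA-A, channel, AMPA and kainate, NMDA or vesicle release lists did. With the trends removed no gene of these lists passed in limma.

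Genes of translation and respiration were covered by 4 lists. Of 79 cytosolic ribosomal protein genes 13 fell and none rose, with a median of -0.22. Rpl37 was at 1273, 1633, 1578, 1703 and 1858 in HT and at 1909, 2109, 2472, 2148 and 2105 in WT, without overlap, and changed by -0.42 ± 0.11 (limma, adjusted p = 0.0135). The summed level of the list was highest in WT replicate 3, at 314439 against 255725 to 285317 in the other WT libraries and 220239 to 275173 in HT. Of 36 nuclear genes of respiratory complex I 4 fell, among them Ndufb9 (-0.26), and of 41 of complexes II to V 7 fell, among them Atp5d (-0.39) and Uqcr11 (-0.35). Of 64 mitochondrial ribosomal protein genes 7 fell. The medians of these 4 lists without WT replicate 3 were -0.16, -0.13, -0.12 and -0.07, with no member past the threshold, and with the trends removed they were -0.10, -0.07, -0.04 and -0.03.

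Messages encoded by the mitochondrial genome differed in their sum. The 13 genes summed to 1592380 to 1830196 normalised counts in HT and 1864766 to 2347586 in WT, without overlap, and WT replicate 3 was the lowest WT library. Both groups lay inside the range of the 49 libraries of other groups, 1248160 to 2847775. Their median log2 fold change was -0.26, and -0.39 with the trends removed. None of the 13 passed in limma, and in a library of polyadenylated RNA their level also depends on capture of the tail.

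Marker lists of glia and vessels had few members past the threshold. All 20 oligodendrocyte genes were below 0, none past the threshold, with a median of -0.45, which became -0.24 without WT replicate 3. Mbp was at -0.57 and -0.34, and Mog, of the myelin surface, at -0.56 and -0.32. The 20 endothelial genes were all below 0, with a median of -0.20, and Bsg (-0.25), Cldn5 (-0.40) and Egfl7 (-0.33) fell. Without WT replicate 3 the endothelial median was -0.12, and no endothelial gene passed then or with the trends removed. Cldn5, a tight junction protein of the blood-brain barrier, was at 1136, 900.5, 1083, 789 and 1294 in HT and at 1273, 1295, 1654, 1340 and 1235 in WT, with the top value in WT replicate 3. For choroid plexus genes the list median turned from -0.23 to 0.27 without that library, and for striatal genes from -0.13 to 0.09. Of 20 astrocyte genes, with a median of -0.12 and 6 above 0, Clu (-0.43), a secreted chaperone, fell. Clu was at 11374 to 16557 in HT and 17222 to 20725 in WT, and it did not pass without WT replicate 3 or with the trends removed. None of the 20 microglial genes passed (median -0.15).

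Interneuron markers went both ways. Erbb4, the neuregulin receptor, rose (0.44) and Sst, the peptide of one interneuron class, fell (-0.47), at 2809 to 3800 in HT and 4182 to 5416 in WT. Gad1 (0.68) and Gad2 (0.41), which make GABA, and Pvalb (-0.48) did not pass. The summed list was 44811 to 60217 in HT and 40519 to 48638 in WT, and HT replicates 2, 4 and 5, those with high olfactory bulb sums, held its 3 highest values. Of the olfactory bulb list itself, Synpr was the 1 of 20 genes that rose, and the median of the list was 0.82, or 0.76 without WT replicate 3. None of 32 immediate early genes, which neuronal activity induces, passed (median -0.14), and Arc was at -1.003 (limma, adjusted p = 0.139).

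**Figure D5:**
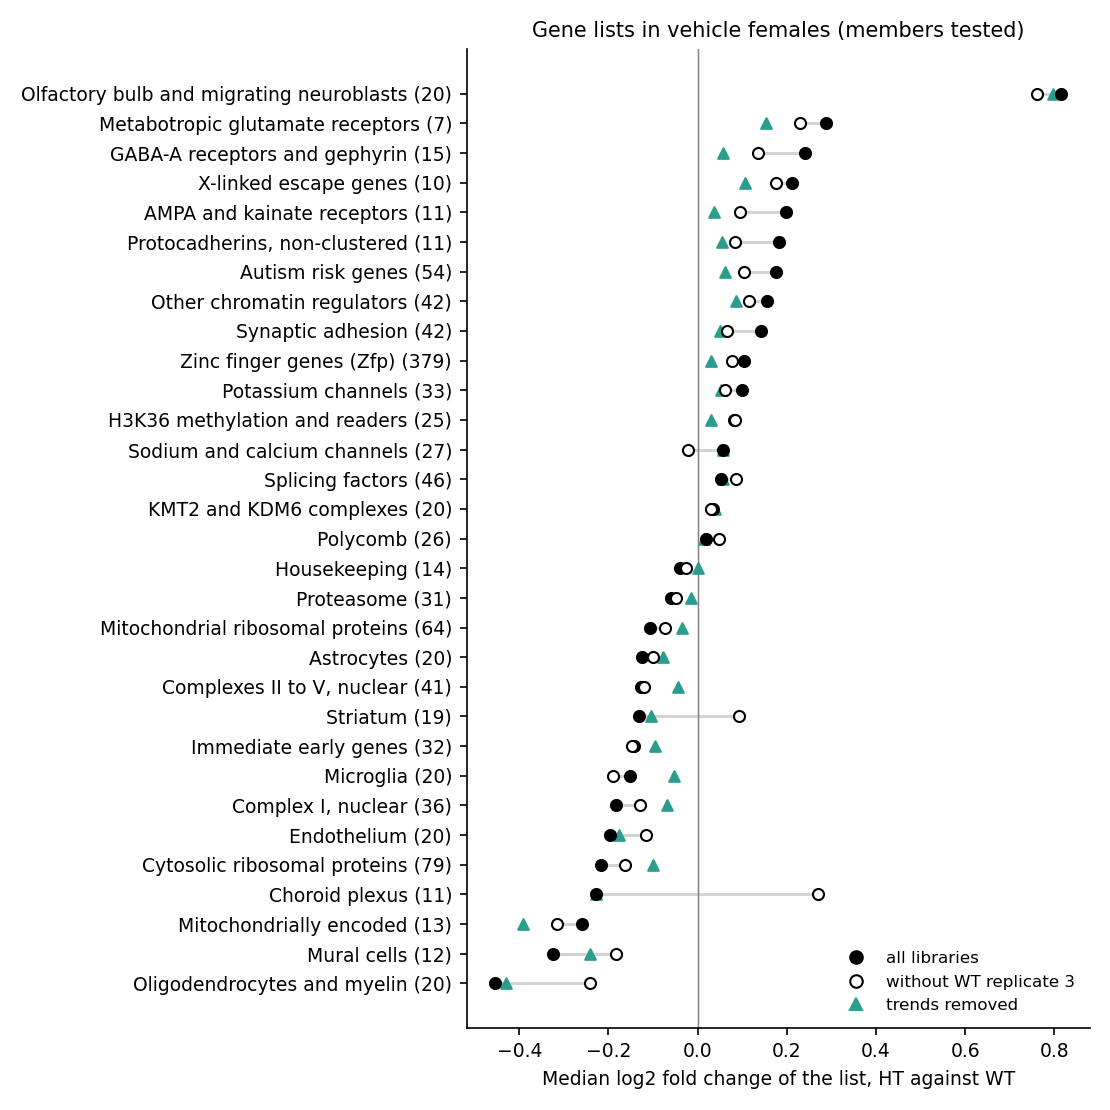
Median log2 fold change of each gene list in HT against WT vehicle females, with all libraries (filled circles), without the library labelled WT replicate 3 (open circles) and with the GC content and length trends removed (triangles). Most medians shrink toward 0 in the other fits, and the choroid plexus and striatal medians change sign without WT replicate 3.

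The contrast was then set beside the same contrast in other mice. The genotype effect differed between vehicle females and vehicle males for 519 genes (2.9%), of which 316 (1.77%) were more positive and 203 (1.14%) more negative in females, and 378 of the 519 were called in females. Kdm6a was 0.29 in females and -0.20 in males (difference 0.50 ± 0.095, limma, adjusted p = 0.0247), and Pcmtd2 was 0.48 and -0.06 (difference 0.54 ± 0.11, adjusted p = 0.0247). This count rested on several single libraries. In limma no gene passed when replicate 3 of the WT vehicle females was left out (3062 at an unadjusted p under 0.05), nor without replicate 4 of the HT vehicle females or either of replicates 2 and 3 of the WT vehicle males. Without replicate 2 of the HT vehicle males 1 gene passed. With the trends removed none passed, with 1677 at an unadjusted p under 0.05, while edgeR called 500 and DESeq2 1196 on all libraries. The other libraries left out in turn gave 34 to 1367 genes. Against lithium females 1465 genes differed (8.2%), 859 more positive (4.81%) and 606 more negative (3.39%) in vehicle females, among them Smchd1 (0.46 and -0.23), Il1rapl1 (0.63 and -0.32) and Selenow (-0.40 and 0.27), and with the trends removed 11 did. Leaving out 1 library gave 480 (HT vehicle female replicate 4) to 2408 genes (HT vehicle female replicate 5), and 621 without WT vehicle female replicate 3. The risen genes had a median of -0.05 in vehicle males, 0.11 in fluoxetine females, -0.12 in fluoxetine males, -0.11 in lithium females and -0.01 in lithium males. The sign of each median was opposite to that of the stratum's correlation with GC content, except in lithium males.

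Against fluoxetine females 15 genes differed (0.0839%), 2 more positive (0.0112%) and 13 more negative (0.0727%) in vehicle females. Leaving out 1 library gave 3 (HT fluoxetine female replicate 3) to 101 genes (HT fluoxetine female replicate 2), with 99 when replicate 5 of the HT vehicle females was left out. The 15 include the activity-induced genes Egr2, Fos, Arc and Egr1, which passed in fluoxetine females, at 2.02 for Fos, 2.15 for Arc and 1.12 for Egr1, and did not pass in vehicle females, at -0.25 for Fos, -0.42 for Egr2 and -0.16 for Egr1. In the order given, the differences were -2.63 ± 0.48, -2.27 ± 0.42, -3.16 ± 0.60 and -1.28 ± 0.25 (limma, adjusted p = 0.0106, 0.0106, 0.0108 and 0.0177).

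Genes that differed by genotype in the mean of the other 5 strata, which share no contrasted library with the vehicle females, were read in the 10 vehicle female libraries. Of 74 such genes (0.414%), 73 remain besides Ash1l. In vehicle females 44 of the 73 had the same sign, 48 without WT replicate 3 and 55 with the trends removed, while over all tested genes the share with the same sign was 38.0%, 39.7% and 47.6%. A total of 3 of the 73 passed in vehicle females with all libraries, where 6.2% of all tested genes did: the chemokine gene Cxcl14 (-0.21), Aldh1a1 (-0.40), an enzyme of retinoic acid synthesis, and the predicted gene Gm14569 (-1.17). None passed without WT replicate 3 in limma. Counted library by library, 38, 48, 32, 43 and 60 of the 73 genes lay on the HT side of the midpoint between the HT and WT means of the other strata in HT replicates 1 to 5, and 32, 31, 48, 32 and 30 in WT replicates 1 to 5. WT replicate 3 was thus level with HT replicate 2, while WT libraries of the other groups, which took part in choosing these genes, had 3 to 35 and HT libraries 41 to 65.

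Tbx1, a T-box transcription factor (chromosome 16, 18580979-18590671), was at 21.4, 14.9, 28.5, 1.02 and 11.6 in HT and at 33.1, 35.1, 62.4, 52.6 and 46.6 in WT. The groups did not overlap, and the library labelled WT replicate 3 was the highest of the 10. The log2 fold change of -1.91 ± 0.74 did not pass here (limma, adjusted p = 0.108), and it was -2.40 to -1.80 in the other 5 strata. Trp53i11 was at 2155, 2348, 2161, 2214 and 2596 in HT and at 2096, 2108, 1805, 2011 and 2074 in WT, again without overlap and with WT replicate 3 on the far side from HT (0.18 ± 0.087, limma, adjusted p = 0.194). Tchh did not overlap either (HT 81.6 to 105, WT 108 to 120). Skida1 was -0.17 here and -0.41 to -0.23 in the other strata, and it overlapped through WT replicate 3, at 221 against 252 to 275 in the other WT libraries. Met, the receptor of hepatocyte growth factor, was at 361 to 506 in HT and 408 to 564 in WT (-0.12 ± 0.14, limma, adjusted p = 0.655).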

How the data were processed

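The 59 libraries, of which the 10 vehicle females are described, were prepared from poly(A) RNA with a stranded kit, per the labels' protocols. The deposited values are a signal per gene, read counts divided by one size factor per library; the submitters' processing notes name Salmon 0.11.2, DESeq2 1.19.11, R 3.6.0 and GRCm38. For annotation, strand setting and gene filter: not given in the sources used here. Every value of all 59 libraries was a whole multiple (within 0.01) of what 1 read is worth in its library, so the read counts were recovered for edgeR 4.0.16 and DESeq2 1.42.0. Depth was 24.5 to 36.3 M reads (M for mega) per library.

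The main test was limma 3.58.1 (trend and robust options, R 4.3.3) on log2(value + 1), with a mean for each group of all 59 libraries and Benjamini-Hochberg adjustment over the 17875 of 18088 genes with a value of at least 10 in at least 5 libraries. Fold changes on this scale understate those of low genes. All libraries entered so that the groups share an estimate of the spread. GC content and length were those of the longest coding transcript in GENCODE M21, known for 17864 tested genes. Their trends were removed by natural splines (5 df) fitted in each library to the deviations from each gene's mean. Methods were tested on simulated data.

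Named genes were Ash1l, those called with and without WT replicate 3 or with trends removed, the 10 largest rises and falls at a mean of at least 100, up to 4 called members per list and direction, up to 6 per interaction, up to 12 from the other strata and the sex check genes. Predicted genes were left out of this rule. Some named genes are not reported here. Gm17018, Gm14569, Tbc1d4 and list members beyond the rule were named after their values were seen. The members and the lists were chosen with earlier results of these data known.

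Alternatives were a pseudocount of 10, no filter, edgeR, DESeq2, fewer libraries in the fit, library weights, quantile normalisation, trend removal, a replicate block and each library left out. Replicate numbers did not pair the samples. No 2 libraries of a group agreed within sampling noise.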

Additional observations from a re-analysis of the deposited data

Results flagged for a closer look

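Of 110 groups of 5 libraries tested, each for 1 measure, 15 had a single library far from the other 4. Chance alone gives about 5% of independent groups, but these groups share libraries and are not independent, so the rates cannot be compared. In WT there were 11 such groups, and in 10 of them the single library was the one labelled WT replicate 3. Its normalised counts were 3557 for Ash1l, 11790 for Nsmf, 779 for Smchd1, 1653 for Jmjd1c and 437 for Pcdh11x, a protocadherin gene, each below the other WT libraries. Its summed normalised count was 26.7 M (M for mega), also lowest. Its marker sums were 143093 for excitatory neurons, below the rest, and 41804 for endothelium, 18279 for choroid plexus and 20503 for striatum, above the rest. The remaining WT value was 108 for Tchh in replicate 5. In HT, Nagk stood at 842 in replicate 1, the library weight at 0.498 in replicate 5, the mitochondrially encoded sum at 1592380 in replicate 2 and the sum of meningeal and fibroblast markers at 36093 in replicate 5.

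The genotype effect differed between vehicle females and another group by the test of the difference itself (limma). Against vehicle males 519 genes passed, and the difference was 0.50 for Kdm6a, 0.73 for Zbtb6, 0.54 for Jmjd1c, 0.54 for Pcmtd2, -0.46 for Mtch1 and -0.42 for Cnpy3 on the log2 scale. In limma no gene passed this test without WT vehicle female replicate 3 (3062 at an unadjusted p under 0.05), HT vehicle female replicate 4, or WT vehicle male replicate 2 or 3. Against fluoxetine females 15 genes passed, with differences of -2.03 for Tm6sf2, -2.63 for Egr2, -2.27 for Fos, -1.72 for Tnfrsf25, -3.16 for Arc and -1.28 for Egr1. Against lithium females 1465 genes passed, with differences of 0.69 for Smchd1, -0.67 for Selenow, 0.73 for Dhx15, 0.95 for Il1rapl1, 0.70 for Dhx36 and 1.005 for Pgap1.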

How the results depend on the processing

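Counts of called genes depended on the processing, and the cause was not tested. Risen genes numbered 81 with the GC content trend removed, 279 with the length trend removed, 5 with both, 3 with both and a replicate block, 0 in fits of the 10 vehicle female or the 20 vehicle libraries alone (limma, 2964 and 3050 at an unadjusted p under 0.05), and 0 without WT replicate 3 and with both trends removed. Fallen genes numbered 564 in DESeq2, 837 with library weights, 583 with quantile normalisation, 24, 105 and 1 with the GC content, length and both trends removed, 1 with both and the block, 0 in both smaller fits, and 1 without WT replicate 3 and with both trends removed. Leaving out 1 library at a time gave 11 to 1333 risen and 9 to 818 fallen genes.

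The difference from vehicle males gave 1196 genes in DESeq2, 93 with library weights, and 0 with the GC content, the length or both trends removed, with both and the block, with vehicle libraries alone, and without WT replicate 3 with both trends removed or without it and WT vehicle male replicate 2; 1 library left out gave 0 to 1367. That from fluoxetine females gave 80 in DESeq2, 233 with weights and 27 without WT replicate 3 and with both trends removed (3 to 101 with 1 library out). That from lithium females gave 3384 with weights, 13, 811 and 11 with the GC content, length and both trends removed, 5 with both and the block, and 1 without WT replicate 3 and with both removed (480 to 2408). The mean of the other strata gave 143 in DESeq2 and 158 with weights (43 to 101).

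Ash1l passed with weights (-0.19), quantile normalisation (-0.15), the GC content (-0.19), length (-0.26) or both trends removed (-0.28, also with the block) and without WT replicate 3 and both trends (-0.31), with -0.20 to -0.078 over libraries left out. The correlation of fold change with GC content was -0.591 to -0.466 and with length 0.204 to 0.327 over libraries left out. With both trends removed, 1 member passed in the lists of lysine 36 methylation, other chromatin regulators and autism genes, and 0 in every other list tested. Without WT replicate 3 those lists had 1, 2 and 1, metabotropic receptors 1, synaptic adhesion 1, and the others 0.

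Signs turned for Rps15 (0.0047) and Mtch1 (0.0011) with both trends removed, alike with the block, for Pcdh11x (-0.045 so, and -0.074 also without WT replicate 3) and for Mt2 (0.0015 in that last fit). Dmrt2 turned to -0.034 with weights, -0.012 in that last fit, and -0.0017, -0.012 and -0.082 with HT replicate 3, HT replicate 4 or WT replicate 3 left out (-0.082 to 0.31 over all). The replicate block alone gave 781 risen and 291 fallen genes. Same-numbered libraries had residual correlations of -0.179 to 0.0234, and 0 correlated best with their own number.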
